A study of Homo sapiens with 33 samples.

Results

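The CaCo-2 part of the series compared cells left unstimulated with cells exposed to recombinant human tumour necrosis factor alpha (TNF) at 5 ng per ml for 60 min. CaCo-2 is an adherent human colon carcinoma line with epithelial features, and both groups grew in DMEM with foetal bovine serum and antibiotics. RNA was reverse transcribed with a 33P label and hybridised to nylon membranes with 34560 cDNA spots. The comparison used 10 of the 33 deposited columns, and 10 of the 18 CaCo-2 columns: control replicates 1 to 5 and TNF replicates 1, 2, 4, 5 and 6. The 8 CaCo-2 columns left out were 7 on about 3 times the scale, which repeat single columns, and TNF replicate 3, whose readings also stand under a control label. Nothing in the labels says that the arrays came from separate cultures, so a p-value here measures how far arrays spread, and that spread can be technical in origin. CaCo-2 is a single tumour line, and no second epithelial line or other time was analysed here.

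TNF binds TNFR1 on epithelial cells. The receptor's adaptors and ubiquitin ligases activate the kinases that release NF-kB from its inhibitors and the MAP kinases that activate AP-1. Immediate early genes, feedback inhibitors such as NFKBIA and TNFAIP3, and chemokines such as CXCL8 and CCL20 are known early transcriptional targets. In intestinal epithelium TNF is also known for its effect on tight junctions.

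No gene passed the test after TNF. In limma with Benjamini-Hochberg adjustment, 0 of 19479 spots (0%) passed an adjusted p of 0.05, and the smallest adjusted p was 1. An unadjusted p under 0.05 was reached by 484 spots (2.48%), 364 of them higher after TNF (1.87%) and 120 lower (0.616%), where evenly spread p-values would give 973.95. The split moved with the scaling: 515 of 597 such spots were higher with array medians subtracted, 293 of 516 with quantiles over positive values, 296 of 614 with cyclic loess and 67 of 104 without normalization. The spots tested read above 0 on at least 3 arrays of each group. They carried 7151 genes with a named spot, out of 10706 genes named on the membrane.

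The measured differences were small. All levels here are log2 intensities after quantile normalization, and a difference is the mean of the TNF arrays minus that of the control arrays. Over the spots tested, the difference ran from -0.31 to 0.29 with a median of 0.0086, and the median standard error (SE) was 0.038. The 95% interval lay within a 1.5-fold change in either direction for 99.83% of the spots, and 33 spots had an interval reaching beyond it. For 1 spot the interval reached beyond a 2-fold change. These intervals are about the intensity of a spot, and how closely that intensity follows the amount of transcript was not tested. With the spots cut into 4 equal bins of brightness, the median absolute difference was 0.027, 0.024, 0.021 and 0.028 from the dimmest to the brightest bin, and the plot of difference against level shows the same narrow band throughout.

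**Figure D1:**
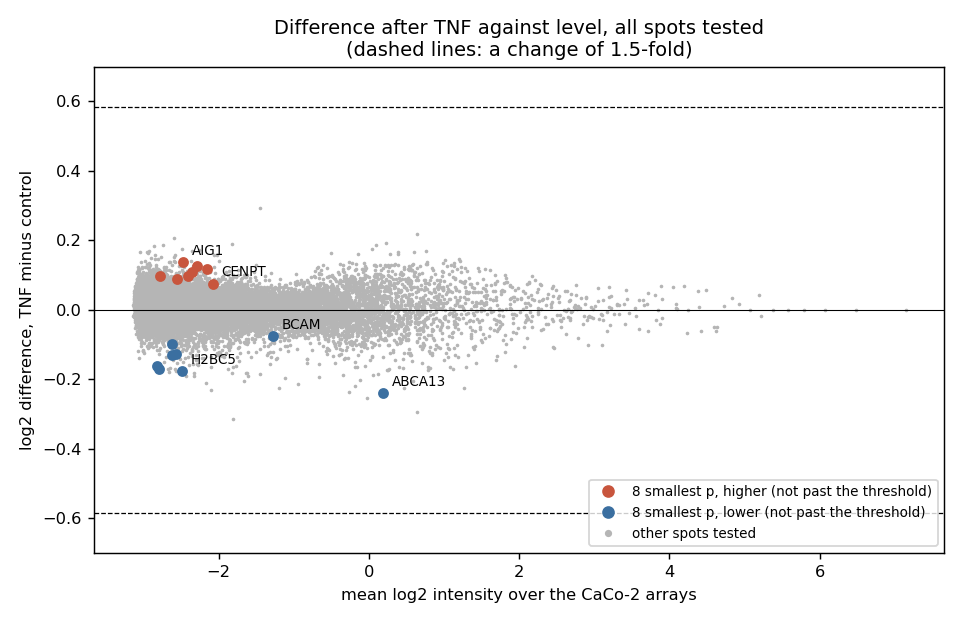
Difference after TNF (TNF minus control, log2) against the mean log2 intensity over the 10 arrays, 1 point per spot tested. Coloured points are the 8 named genes with the smallest p in each direction, which did not pass the threshold, and all points lie between the dashed lines at a 1.5-fold change.

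Of the 20 genes set for naming as TNF pathway or early response genes, 6 had a spot of their own: TNF, IER3, SOD2, JUN, JUNB and DUSP1. NFKBIA, TNFAIP3, CXCL8, CCL20, ICAM1, BIRC3, TNFRSF1A, FOS, EGR1, ATF3, NFKB1, NFKB2, RELB and ZFP36 were not analysed here, since no spot carries their symbol alone. The plot of known TNF response genes shows every array of the 6 genes.

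**Figure D2:**
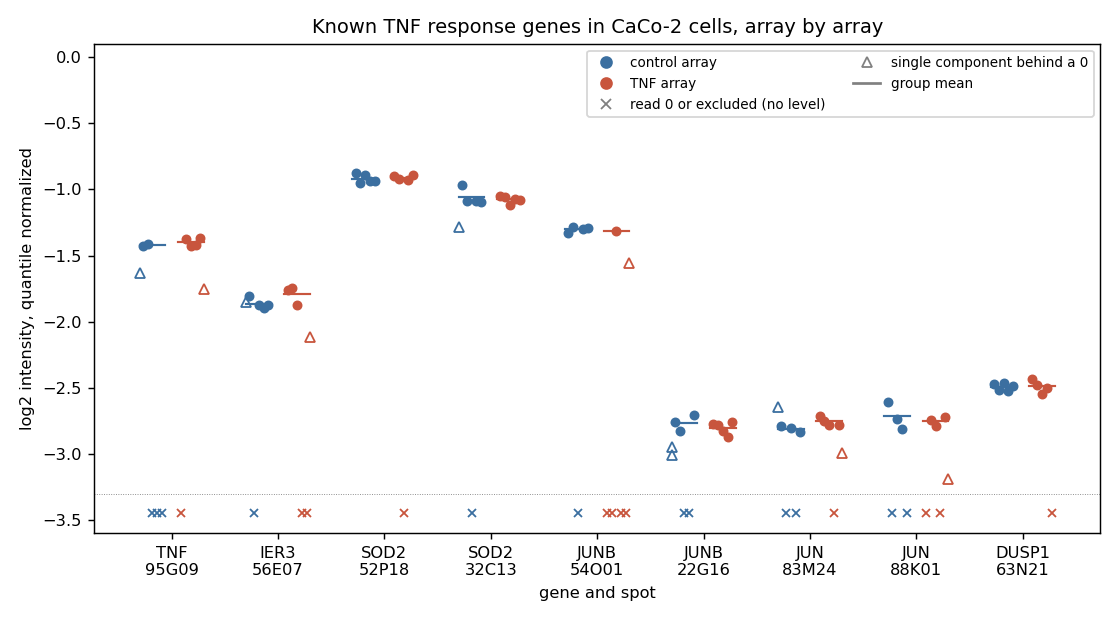
Log2 intensity of the spots of 6 TNF response genes on each of the 10 arrays, with bars for group means. Crosses mark arrays that read 0 or were excluded, and open triangles show the single component value that remained behind a 0 where a summed column holds it; the control and TNF points of each spot lie at similar heights.

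The ligand's own transcript was read above 0 on 2 of 5 control arrays and 4 of 5 TNF arrays, too few for the test. TNF read -1.43 and -1.41 on control replicates 1 and 2, and -1.37, -1.43, -1.42 and -1.37 on TNF replicates 2, 4, 5 and 6. The group means were -1.42 ± 0.0090 (SD, n = 2) and -1.40 ± 0.031 (SD, n = 4), and the arrays above 0 overlapped. The remaining arrays read 0. Behind the 0 of control replicate 4 and of TNF replicate 1 the summed column still held a value, at a level of -1.63 and -1.75.

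IER3, an immediate early gene that acts on cell survival, is the measured NF-kB target with the largest difference. It read -1.81, -1.87, -1.90 and -1.87 on control replicates 1, 3, 4 and 5, and -1.76, -1.75 and -1.88 on TNF replicates 1, 2 and 4. TNF replicates 1 and 2 were above all controls and TNF replicate 4 lay among them. The difference was 0.069 ± 0.040 (SE), with a 95% interval of -0.021 to 0.159 and an adjusted p of 1 in limma.

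SOD2, the mitochondrial superoxide dismutase and a textbook NF-kB target, had a pair of tested spots that agree within their spread. Spot 52P18 read -0.88, -0.95, -0.89, -0.94 and -0.94 on control replicates 1 to 5, and -0.90, -0.92, -0.93 and -0.89 on TNF replicates 1, 2, 5 and 6. The groups overlapped throughout, and the difference was 0.0067 ± 0.030 (SE), with an interval of -0.060 to 0.073. At spot 32C13 the difference was -0.017 ± 0.035 (SE). Without control replicate 1, which read -0.97 where the other controls read -1.10 to -1.08, it was 0.015.

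The AP-1 subunits JUN and JUNB and the MAP kinase phosphatase DUSP1 are induced within an hour by many stimuli. JUN spot 83M24 read -2.79, -2.80 and -2.84 on control replicates 1, 3 and 5, and -2.71, -2.75, -2.78 and -2.78 on TNF replicates 1, 2, 4 and 6. The groups did not overlap there, as at 1.45% of the spots tested in that direction. The difference was 0.055 ± 0.032 (SE, adjusted p of 1 in limma), while the gene's other spot, 88K01, had -0.036 ± 0.053 (SE). Behind the 0 values at spot 83M24, the component was -2.65 on control replicate 2, above all 4 TNF arrays, and -2.996 on TNF replicate 5, below all 3 controls.

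JUNB spot 22G16 read -2.76, -2.83 and -2.70 on control replicates 1, 2 and 5, and -2.77, -2.78, -2.82, -2.88 and -2.76 on TNF replicates 1, 2, 4, 5 and 6. The groups overlapped, and the difference was -0.038 ± 0.038 (SE). The brighter JUNB spot, 54O01, was above 0 on 4 of 5 control arrays, at -1.30 ± 0.02 (SD, n = 4), and on TNF replicate 4 alone after TNF, at -1.31. Behind the 0 of TNF replicate 5 the summed column held a component at -1.55, on an array whose components ran low by a median of -0.25 (below). A dimmer JUNB spot, 89L10, went the other way, above 0 on 1 of 5 control arrays and 3 of 5 TNF arrays. Its component behind the 0 of control replicate 1 was -3.102, below the mean of -2.949 on those TNF arrays. Spots 54O01 and 89L10 were above 0 on too few arrays for the test. DUSP1 read -2.47, -2.52, -2.46, -2.53 and -2.49 on control replicates 1 to 5, and -2.43, -2.48, -2.55 and -2.50 on TNF replicates 1, 2, 4 and 5. These groups overlapped as well, with a difference of 0.0048 ± 0.028 (SE) and an interval of -0.056 to 0.065.

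The wider pathway was described by 14 gene lists with 1 spot per gene, the brightest spot tested. Over all 7151 genes, 162 had an unadjusted p under 0.05 (2.27%), 116 higher and 46 lower, the median difference was 0.0094 and 61.4% of genes were higher. The lists together held 251 tested genes, of which 0 passed the adjusted test and 5 had an unadjusted p under 0.05, all 5 higher. The plot of gene lists shows the median of each list close to that of all genes. CHUK, a kinase of IkB, was the only member whose interval reached beyond a 1.5-fold change.

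**Figure D3:**
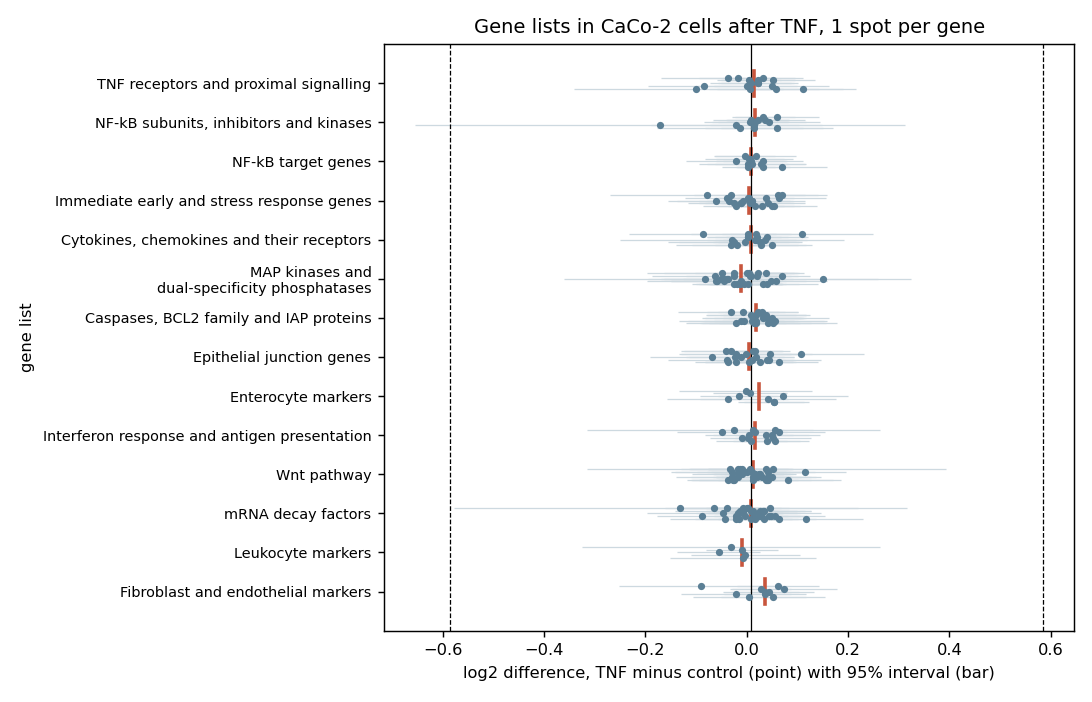
Log2 difference after TNF for each tested member of 14 gene lists, with 95% intervals; red bars are list medians, the solid line is the median over all genes tested (0.0094) and dashed lines mark a 1.5-fold change. List medians run from -0.011 (MAP kinases) to 0.036 (fibroblast and endothelial markers).

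Among TNF receptors and their proximal adaptors, 16 of 33 genes were tested, with a median of 0.015. TRAF6, a ubiquitin ligase of Toll-like and interleukin-1 receptor signalling, had an unadjusted p under 0.05 and a difference of 0.11 ± 0.05 (SE). It read -2.76, -2.92, -2.94 and -2.86 on control replicates 1, 2, 4 and 5, and -2.73, -2.79 and -2.74 on TNF replicates 1, 2 and 6, so that control replicate 1 lay among the TNF arrays. TRADD, the adaptor of TNFR1, had the lowest value of the list at -0.099 ± 0.112 (SE). Among 14 tested NF-kB subunits, inhibitors and kinases of 30 the median was 0.016, from -0.17 for CHUK to 0.060 for FBXW11, a subunit of the ligase that marks IkB for degradation. The interval of CHUK ran from -0.65 to 0.31.

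Of 70 NF-kB target genes 13 were tested, with a median of 0.0090 and a range from -0.022 for BCL2L1, an anti-apoptotic protein, to 0.069 for IER3. Here 0 members had an unadjusted p under 0.05, and 11 of 13 were higher, where 61.4% of all genes were. Among cytokines, chemokines and their receptors 20 of 62 genes were tested, with a median of 0.0095. CXCL16, a transmembrane chemokine of epithelia, read 0.65, 0.52, 0.51, 0.54 and 0.58 on control replicates 1 to 5, and 0.87, 0.78, 0.58, 0.52 and 0.61 on TNF replicates 1, 2, 4, 5 and 6. TNF replicates 1 and 2 were above all controls and the other TNF arrays lay among them. Its difference was 0.11 ± 0.07 (SE).

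Of 61 immediate early and stress response genes 24 were tested, with a median of 0.0054. IER2, a nuclear immediate early protein, read -2.50, -2.53, -2.51 and -2.50 on control replicates 1, 3, 4 and 5, and -2.42, -2.46, -2.48 and -2.47 on TNF replicates 1, 4, 5 and 6. Control replicate 2 and TNF replicate 2 had no value above 0. All TNF arrays above 0 were higher than all controls above 0, as at 1.45% of the spots tested. The difference was 0.054 ± 0.024 (SE, unadjusted p of 0.045, adjusted p of 1 in limma). Of 31 tested MAP kinase genes and dual-specificity phosphatases 14 were higher and 17 lower, with a median of -0.011. In that list RPS6KA1, a kinase downstream of ERK, had 0.070 ± 0.025 (SE) and an unadjusted p of 0.018.

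The other lists were as close to the background. Among 23 caspases, BCL2 relatives and IAP proteins the median was 0.019 and 0 had an unadjusted p under 0.05. Among 15 interferon response and antigen presentation genes the median was 0.017, again with 0. Of 36 Wnt pathway genes, 1 had an unadjusted p under 0.05: LRP6, a Wnt co-receptor, at 0.11 ± 0.04 (SE). Of 37 genes of mRNA decay, XRN1, the main cytoplasmic 5′ to 3′ exonuclease, was the 1 such member, at 0.12 ± 0.05 (SE). In the fit with array sets as a block (below), TRAF6 had 0.046 ± 0.042 (SE) and LRP6 0.078 ± 0.051 (SE), both without an unadjusted p under 0.05. For IER2, RPS6KA1 and XRN1, the other list members under 0.05, the values of that fit are not printed here.

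Of the epithelial junction genes 21 of 52 were tested, and 0 had an unadjusted p under 0.05 at the brightest spot. PKP2 is on this list, with 18M07 as its brightest spot at -0.040 ± 0.038 (SE). Its dimmer spots 41A15 and 28E21 were lower after TNF at an unadjusted p under 0.05 in limma, as described below. OCLN, the tight junction protein occludin, read 0.36, 0.36, 0.28, 0.36 and 0.53 on control replicates 1 to 5, and 0.56, 0.56, 0.50, 0.32 and 0.50 on TNF replicates 1, 2, 4, 5 and 6. TNF replicates 1 and 2 were above all controls, but control replicate 5 was above the others after TNF. The difference was 0.11 ± 0.06 (SE), with an interval of -0.017 to 0.23. CLDN4, a claudin, had -0.068 ± 0.057 (SE), and its groups overlapped.

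Enterocyte markers bear on the labelled cell type. Of 46 such genes 8 were tested, among them the brush border protein VIL1 at -2.52 in control cells and -2.46 after TNF, the intestinal cadherin CDH17 at -1.01 in both, and MUC13, a cell surface mucin, at -1.48 and -1.43. The sucrase SI, the phosphatase ALPI and the fatty acid binding proteins FABP1 and FABP2 were not analysed here. Of 30 leukocyte markers 6 had a spot, and 5 were tested. Their spots were above 0 at 55.6% of control readings and 66.7% of TNF readings, where spots of all named genes were at 64.9% and 64.0%, and 2 of the 6 genes were above 0 on all 10 arrays. PTPRC, the leukocyte antigen CD45, read above 0 on 9 of the 10 arrays, at -1.38 in control cells and -1.43 after TNF, and TYROBP, an adaptor of myeloid and natural killer cells, on all 10. The median level of the leukocyte markers that were above 0 ran from -1.91 to -0.98 over control arrays and from -1.95 to -1.30 over TNF arrays, and 0 of 5 tested genes had an unadjusted p under 0.05. The same median was lower for the enterocyte markers, from -2.50 to -2.30 over control arrays and from -2.46 to -2.26 over TNF arrays. Enterocyte spots were above 0 at 67.7% of control readings and 70.8% of TNF readings. Spots of enterocyte and leukocyte genes alike thus read above 0 on some or all arrays, and what a leukocyte gene's reading reflects in this line was not tested.

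Since NF-kB and AP-1 act at promoters, the windows from 250 bases before to 50 after the annotated starts were searched on both strands for an NF-kB-like motif (3 G, any 2 bases, 2 T, any base, 2 C) and for TGANTCA, an AP-1-like motif. Neither motif contains the other. The first was in 5.68% of 35116 RefSeq promoters (GRCh38.p14) and the second in 7.71%. Among tested members of the receptor, NF-kB and target gene lists, TRAF3, CYLD, NFKBIZ, CXCL5 and CXCL10 held the NF-kB-like motif wholly before a start. Matches reaching past the start and genes of a single chromosome were left out of this listing, so it can be incomplete. Their sites are shown because these genes had both a listed promoter match and a tested spot. Each line gives 30 bases of the gene's own strand with the match in capitals, which at CYLD is the reverse complement.
TRAF3: cgggcgcgccGGGGATTTCCagcgcgcgag
CYLD: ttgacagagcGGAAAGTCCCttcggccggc
NFKBIZ: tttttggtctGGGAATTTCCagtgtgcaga
CXCL5: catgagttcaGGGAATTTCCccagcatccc
CXCL10: tctgcaacatGGGACTTCCCcaggaacagc

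The TRAF3 window lies at chr14:102777406-102777435 (plus strand) and that of CYLD, a deubiquitinase that restrains NF-kB, at chr16:50741887-50741916 (plus strand). That of NFKBIZ, a nuclear IkB protein, is at chr3:101827757-101827786 (plus strand), and another of its annotated starts also has a match. CXCL5 has its window at chr4:73998749-73998778 and CXCL10 at chr4:76023600-76023629, both on the minus strand. All 5 lie upstream of an annotated transcription start, with matches beginning between 33 and 223 bases before it. Their differences after TNF were 0.0015 ± 0.044 (SE) for TRAF3, 0.023 ± 0.033 (SE) for CYLD, 0.0090 ± 0.035 (SE) for NFKBIZ, 0.0023 ± 0.037 (SE) for CXCL5 and 0.018 ± 0.036 (SE) for CXCL10. The 5 values all lie within 1 SE of 0.

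CXCL10, a chemokine for activated T cells, read -2.50, -2.56 and -2.47 on control replicates 1, 4 and 5, and -2.48, -2.51, -2.55 and -2.43 on TNF replicates 2, 4, 5 and 6. NFKBIZ read -1.85, -2.04, -1.98, -1.99 and -2.004 on control replicates 1 to 5, and -1.92, -1.96, -2.01, -1.999 and -1.93 on TNF replicates 1, 2, 4, 5 and 6. The groups overlapped for both genes. Over the genome, 532 tested genes with the NF-kB-like motif had a median difference of 0.011, with 61.7% higher and 2.82% at an unadjusted p under 0.05. Over all 5879 tested genes with a promoter in the table these were 0.0097, 61.5% and 2.28%. For 454 genes with the AP-1-like motif they were 0.0081, 60.1% and 2.20%, and 0 genes of either kind passed the adjusted test.

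The named genes with the smallest p were not known TNF targets from the lists, and they did not pass. Higher after TNF were CRTAP, TBL1XR1, CEP170, ARL6IP5, MCRIP2, CENPT, AIG1 and SUPT16H, by 0.075 to 0.136. Lower were H2BC5, ABCA13, PKP2, CCNL1, IGF2BP1, SLC25A39, EPB41L2 and BCAM, by -0.076 to -0.240. All 16 had an adjusted p of 1 in limma. Groups did not overlap for 6 of the 8 higher and 5 of the 8 lower genes. Over all spots tested 341 (1.75%) were so, 1.45% in the upward and 0.298% in the downward direction, and by the brightest spot 129 of 7151 genes (1.80%). These genes were picked by their p, so those counts are a description.

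H2BC5, a core histone H2B gene, had the smallest p of all named genes. It read -2.50, -2.40, -2.35, -2.47 and -2.28 on control replicates 1 to 5, and -2.56, -2.59, -2.63, -2.60 and -2.50 on TNF replicates 1, 2, 4, 5 and 6. All TNF arrays lay below all controls, by little between control replicate 1 and TNF replicate 6. The difference was -0.177 ± 0.040 (SE). Histone H2B genes are near-identical in sequence, so the spot's assignment to 1 of them is uncertain.

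ABCA13, a large lipid transporter of the ABC family, read 0.33, 0.32, 0.37, 0.35 and 0.19 on control replicates 1 to 5, and 0.06, 0.12, 0.11, -0.11 and 0.18 on TNF replicates 1, 2, 4, 5 and 6. The lowest control and the highest TNF array nearly touched. The difference of -0.240 ± 0.056 (SE) is the lowest of all genes by their brightest spot, and it missed the threshold. In THP-1, a monocytic line that received TNF in the same series, the difference was -0.15 ± 0.06 (SE).

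PKP2, plakophilin 2, is a desmosomal plaque protein of the epithelial junction list. Of 1958 genes with several tested spots it is the only 1 with at least 2 at an unadjusted p under 0.05 in the same direction. Over all spots tested 2.48% had such a p in limma. Spot 41A15 read -2.59, -2.58, -2.57, -2.53 and -2.56 on control replicates 1 to 5, and -2.66, -2.72, -2.66 and -2.63 on TNF replicates 1, 4, 5 and 6. All TNF arrays above 0 were lower there, with a difference of -0.098 ± 0.025 (SE). Spot 28E21 had -0.145 ± 0.058 (SE) and spot 18M07, the brightest, -0.040 ± 0.038 (SE). All 3 spots were lower after TNF, 2 of them at an unadjusted p under 0.05 in limma. The spots were read on the same arrays, so they are not replicates of the comparison.

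MCRIP2 was the leading gene in the upward direction that was above 0 on all 10 arrays with groups that did not overlap. It read -2.82, -2.84, -2.85, -2.85 and -2.81 on control replicates 1 to 5, and -2.69, -2.76, -2.79, -2.77 and -2.67 on TNF replicates 1, 2, 4, 5 and 6. The difference was 0.097 ± 0.029 (SE). CRTAP, a collagen prolyl hydroxylation factor, read -2.42, -2.47, -2.46, -2.48 and -2.47 on control replicates 1 to 5, and -2.32, -2.39, -2.36 and -2.36 on TNF replicates 1, 2, 4 and 6. Its difference of 0.096 ± 0.023 (SE) had the smallest p in that direction. At 2 other CRTAP spots the difference was -0.0048 ± 0.033 (SE) and 0.040 ± 0.057 (SE).

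Other spots of the leading genes gave little repetition. For 10 of the 16 genes another spot was tested, 15 spots in all, and 8 of the 15 had the same sign and 1, of PKP2, an unadjusted p under 0.05. Across the 1958 genes with at least 2 tested spots, the levels of the brightest pair of spots correlated at r = 0.562 (Spearman 0.565). Their differences after TNF did so at r = -0.0079 (Spearman 0.0070), and 51.8% of pairs had the same sign. These values are across genes on the same 10 arrays and carry no p.

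Control and TNF arrays with the same range of deposited values deviated from their group means together. By the range of their deposited values they fall into 3 sets: control replicate 1 with TNF replicates 1 and 2 (set A, lowest positive value 0.130 to 0.136), control replicate 5 with TNF replicate 6 (set B, highest value 135 and 133), and control replicates 2, 3 and 4 with TNF replicates 4 and 5 (set C). The labels do not say what these sets are. Over 7966 spots above 0 on all arrays, the deviations from the group means correlated at a median r of 0.347 (0.122 to 0.704) between control and TNF arrays of the same set, over 9 pairs. Centring on the group mean lowers correlations within a group by construction, so pairs of 1 control and 1 TNF array are compared here. These pairs are not free of it either, since the deviations of a group sum to 0 at each spot. Positive values within sets thus push those between sets below 0, and the contrast is a description. Between sets the median was -0.258 (-0.411 to 0.107) over 16 pairs, as the plot of correlations shows.

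**Figure D4:**
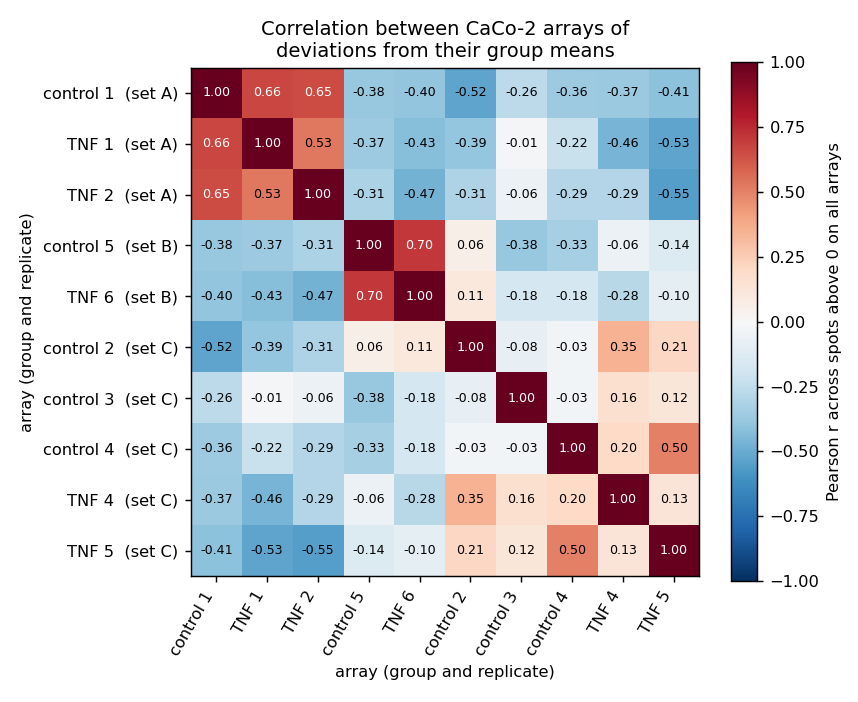
Pearson correlation, for each pair of the 10 arrays, of deviations from the group mean over 7966 spots above 0 on all arrays, ordered by array set. The control and TNF arrays of sets A and B correlate at 0.654 to 0.704, and arrays of different sets mostly below 0, to which centring on the group mean contributes by construction.

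With the set as a block, 0 of 19462 spots passed in limma (0%), the smallest adjusted p was 0.998, and 771 had an unadjusted p under 0.05 (3.96%), 478 of them higher. Within sets, H2BC5 differed by -0.078 in A, -0.221 in B and -0.208 in C. ABCA13 differed by -0.238 in A, -0.0084 in B and -0.347 in C. IGF2BP1, an RNA-binding protein of fetal and tumour cells, had 0.0092 in A, -0.251 in B and -0.187 in C. Its sign changed in set A. Of the leading genes 6 of 8 in each direction had a value in every set with the same sign in all 3. So had 23.8% of the 12322 spots with a value in every set, and 290 of the 333 of those at an unadjusted p under 0.05 (87.1%), the property by which the leading genes were picked. In the blocked limma fit, 7 of the 8 higher and 8 of the 8 lower leading genes had an unadjusted p under 0.05, where 3.96% of spots had. They were picked by their p on the same arrays, so this too is a description. IER3 had 0.032 ± 0.030 (SE) in the blocked fit, less than the 0.069 without it, and CXCL16 0.065 ± 0.037 (SE).

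Values of exactly 0 stood at 32.3% to 35.7% of spots on control arrays and at 32.03% to 37.4% on TNF arrays, and 48 to 148 spots per array were excluded by negative values. Above 0 on all 5 TNF arrays and 0 on all 5 control arrays were 12 spots (0.0347%), and 7 had the opposite pattern (0.0203%). Single-gene symbols belonged to 5 of the 12, KCTD12, CFC1, GTF2A1, NMRK1 and PANTR1, and to 0 of the 7. Fisher's exact test on 5 against 5 arrays gives a two-sided p of 0.0079 for each such spot, the smallest the design allows, unadjusted over 34560 spots. With the 0 raised to each array's lowest positive value, limma called 14 spots, and all 14 had no reading above 0 in 1 of the groups.

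For 4 of the 5 control arrays and 2 of the 5 TNF arrays a summed column holds the readings behind a 0. A single column appears to read 0 where fewer than 2 of its 3 component values were above 0, and the summed column then keeps the remaining one. Of the 0 values on these 6 arrays, 41.2% to 46.2% had such a component. At the 12 spots, 27 of 48 control readings at 0 had one, and each of the 12 spots had at least 1. Placed on the array's own scale, the mean component of a spot lay at a median of -0.11 (-0.26 to 0.13) from its TNF level. Of the 27 components 6 were held at the array's lowest level, so that their distance is a lower limit in size. At the 7 spots of the opposite pattern 7 of 14 readings had a component, and 4 of the 7 were held at that level, so no distance is given.

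Control replicate 2 stood apart in these components. Of the 27, its 6 were all above the mean TNF level of their spot and the 21 of the other control arrays were all below. The same array stood apart at spots without such a pattern. At spots above 0 on 9 of 10 arrays, components behind the single 0 lay at a median of 0.047 from the mean of the other arrays on control replicate 2 (141 components). On the other 5 arrays with a summed column the median lay between -0.35 and -0.22. High components were thus common on control replicate 2, also at spots outside these patterns, and their source was not tested.

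DIRAS3, a Ras-related GTPase of imprinted expression, read -1.78, -1.80, -1.82 and -1.78 on TNF replicates 2, 4, 5 and 6 and stood at 0 in every control. The component was -1.81 on control replicate 2 and -2.03 on control replicate 3. NMRK1, a nicotinamide riboside kinase, read -2.41, -2.42, -2.56, -2.51 and -2.45 on TNF replicates 1, 2, 4, 5 and 6, and its components were -2.33, -2.66 and -2.69 on control replicates 2, 3 and 4. For both genes the component of control replicate 2 was within or above the range of the TNF arrays, as that array's components generally were, and the others were lower.

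The plot of spots listed at 0 holds further genes. PANTR1, a long non-coding RNA, had -2.50 ± 0.07 (SD, n = 5) after TNF and a component of -2.45 on control replicate 2. GTF2A1, a subunit of the general transcription factor TFIIA, had -2.996 ± 0.103 (SD, n = 5) and a component of -2.87 on that array. CFC1, a Nodal co-receptor, had -2.89 ± 0.07 (SD, n = 5), with components at -3.06, -2.78 and -3.16 on control replicates 1, 2 and 4. KCTD12, an auxiliary subunit of GABA-B receptors, had -2.92 ± 0.06 (SD, n = 5), and its 3 components, from -3.17 to -3.11, were all lower.

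**Figure D5:**
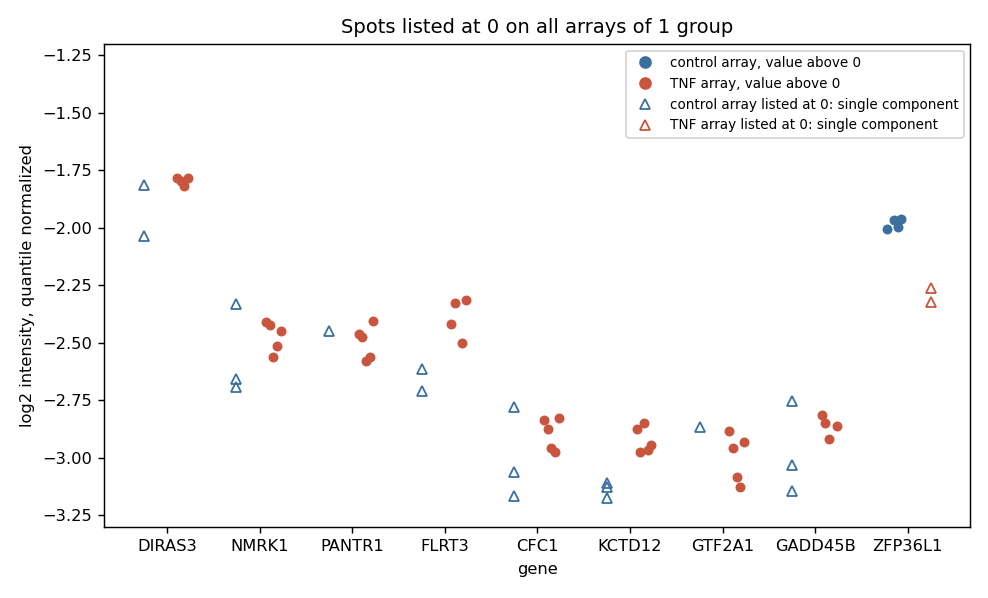
Log2 intensity of 9 spots listed at 0 on all arrays of 1 group, with filled points for arrays above 0 and open triangles for the single component that a summed column holds for arrays listed at 0. Components of DIRAS3, NMRK1, PANTR1, CFC1, GTF2A1 and GADD45B on control replicate 2, whose components ran high at most spots, lie within or above the range of the TNF arrays. All other components lie below the mean of the other group, and KCTD12 and FLRT3 have none on that array.

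Among immediate early genes, GADD45B, a stress-inducible regulator of MAP kinases, stood at 0 in every control and read -2.81, -2.85, -2.92 and -2.86 on TNF replicates 1, 2, 4 and 6. Its components were -2.75, -3.03 and -3.15 on control replicates 2, 3 and 4, and also -3.15 on TNF replicate 5, which read 0. ZFP36L1, which promotes decay of AU-rich mRNAs, stood at 0 after TNF throughout and read -2.005, -1.96, -1.998 and -1.96 on control replicates 1, 3, 4 and 5, with components of -2.32 and -2.26 on TNF replicates 1 and 5. Over 78 named spots at 0 throughout 1 group and above 0 on at least 4 arrays of the other, 106 of 240 such readings (44.2%) had a component, at a median of -0.18 from the other group. At the 42 of these spots that were at 0 in control, 17 of 20 components of control replicate 2 were above the TNF level and 0 of 61 on the other control arrays. Without control replicate 2 the median distance at these 42 spots was -0.20, from control replicates 1, 3 and 4. At spots above 0 on 9 of 10 arrays the median of these arrays was -0.24, -0.22 and -0.22. Some components, as at SOCS5, were held at the array's lowest level, so their distance is a lower limit in size.

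A difference from THP-1 was tested with 4 control and 7 TNF arrays of that line, also exposed to 5 ng per ml for 60 min. The interaction passed at 0 of 15930 spots (0%) in limma, and 343 spots (2.15%) had an unadjusted p under 0.05. JUNB spot 22G16 had -0.038 ± 0.038 (SE) in CaCo-2 and 0.13 ± 0.05 (SE) in THP-1, an interaction of -0.17 ± 0.07 (SE) with an unadjusted p of 0.028 and an adjusted p of 1 in limma. JUN spot 83M24 had 0.055 ± 0.032 (SE) and 0.052 ± 0.026 (SE) in CaCo-2 and THP-1. The TNF spot could not be tested for the interaction, since 2 CaCo-2 control arrays read above 0.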

How the data were processed

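The authors deposited 1 table of array intensities on a linear scale for 33 columns. Image analysis, background treatment and scaling: not given in the sources used here. Columns near 3 times the scale were read as sums of 3 component values. Single columns were read as medians of the components above 0, where at least 2 were. Pairs were found by columns exactly double at 22.6% to 29.7% of spots (tolerance 1e-06), against at most 0.0051% for the next. Negative values were set to missing. Values of 0 held the lowest rank in quantile normalization over the 10 arrays and were then missing. Spots above 0 on at least 3 arrays per group were tested with lmFit and eBayes (variance trend, two-sided, Benjamini-Hochberg, threshold 0.05) in limma 3.58.1 under R 4.3.3, with no covariate. The script was tested on simulated data with 200 changed spots. Components were placed on an array's scale by interpolation between its values and held at its lowest level below them.

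Of the spots 18025 carried 1 symbol in the platform annotation, 858 several and 15677 none; 17928 with an identifier in the human RefSeq table were named. The members and gene lists were chosen with earlier results of these data known. Named were the 8 genes of smallest p in each direction, 20 TNF pathway genes, in each list the 4 genes of lowest p, genes at 0 throughout 1 group, and genes with several spots under 0.05; a selection is printed. DIRAS3, FLRT3, GADD45B, ZFP36L1 and the promoter genes TRAF3, CYLD, NFKBIZ and CXCL5 were chosen after their values were seen, as were the array sets, the test with sets as a block and the fits without sets A or B. The number of arrays limits the precision. Other fits are in the closing section.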

Additional observations from a re-analysis of the deposited data

Results flagged for a closer look

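Single arrays far from the others of their group were searched for in 43 sets of 4 or 5 values, and 7 were found. At 1 in 20, independent and unselected sets would give about 2.15. These sets share arrays, and part of the genes were picked by their p, so the numbers cannot be weighed against each other. The highest values of control replicate 5 and TNF replicate 6 also define array set B. The excluded spots numbered 72 on control replicate 4 and 98 to 106 on its fellow controls. The highest deposited value was 134.568 on control replicate 5 against 142.645 to 145.095, and 133.39 on TNF replicate 6 against 143.222 to 144.259. ABCA13 read 0.186 on control replicate 5 against 0.321 to 0.372 on the other controls. SLC25A39 read -2.66 on control replicate 1 against -2.49 to -2.44. BCAM, a laminin receptor, read -1.19 on control replicate 3 against -1.26 to -1.24. SOD2 spot 32C13 read -0.966 on control replicate 1 against -1.10 to -1.08. In the summed columns, which entered no fit, 27 control readings were above 0 at the 12 spots that were above 0 on all TNF arrays and at 0 on all control arrays.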

How the results depend on the processing

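Besides the reported fit 29 were run, 10 of them leaving out 1 array each. In limma 0 spots passed under all of these but 1: with 0 raised to the lowest positive value 14 passed, 1396 had an unadjusted p under 0.05 (reported: 484) and 2 list members did (reported: 5). The 484 became 192 with spots above 0 on all arrays, 226 in the upper part of the level range, 104 without normalization, 1119 with array weights, 108 with gene means (fewer features tested) and 771 with array sets as a block. It ran from 253 (without TNF replicate 2) to 834 (without TNF replicate 5), with 729 without control replicate 1, 281 without control replicate 4 and 301 without TNF replicate 1. The 5 became 1 with spots above 0 on all arrays or without set A, 2 with at least 4 arrays per group, the upper level range or without set B, 3 with quantiles over positive values, 8 with both lines in the fit and 15 with array weights; leaving out arrays gave 1 to 16. With up to 1 array of exception, 979 spots in place of 19 were at 0 in 1 group. With 0 raised, CRTAP turned to -0.0688, TBL1XR1 to -0.125, CEP170 to -0.0905, CENPT to -0.154, IER3 to -0.223, JUNB spot 22G16 to 0.131, DUSP1 to -0.135 and SOD2 spot 32C13 to 0.409, none past the threshold; EPB41L2 turned to 0.0585 without normalization and ARL6IP5 to -0.0823 with gene means. The cause was not tested. Deviations from the group means correlated at 0.664, -0.307, 0.201 and -0.140 between the same-numbered arrays 1, 2, 4 and 5. Arrays numbered 1 and 4 share an array set and those numbered 2 and 5 do not. These values therefore cannot tell whether the numbers pair the arrays. With the replicate number as a block 0 passed in limma, 506 spots had an unadjusted p under 0.05 and so had 6 list members.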
